A study of Mus musculus with 5 samples.

Results

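Ddit4, the sestrins and the genes that restrain or relay the PI3K and FoxO pathway were followed across 5 Affymetrix arrays of mouse thymic cells. The genes were taken from a list of 10 (Ddit4, Sesn1, Sesn2, Sesn3, Pik3ip1, Foxo1, Foxo3, Sgk1, Tsc1 and Irs2), and every probe set that the deposited table names by one of these symbols or by an older synonym was used. That gave 24 of the 45101 probe sets, and 9 of the 10 genes had at least 1. Irs2, an adaptor of the insulin receptor, had 0 probe sets under that rule and is not analysed here. Pik3ip1 stood in the table under its older name 1500004A08Rik and Sgk1 under Sgk.

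Each array measured RNA from thymic cell suspensions of 3 pooled CD-1 mice, which are outbred; all were males of 4 to 6 weeks. One pool came from animals without treatment, one from animals taken 4 h after PBS was injected into the peritoneum, and one from animals taken 4 h after injection of 0.2 mg dexamethasone each. The other 2 pools were suspensions kept in culture for 4 h at 37 °C and 5% CO2, one with 0.1% ethanol and one with dexamethasone at a concentration that the labels write as 10e-7M. Dexamethasone is a synthetic glucocorticoid, PBS (phosphate-buffered saline) and ethanol are its vehicles here, and no group carried an altered gene. The study set each dexamethasone sample against its vehicle. Each group had 1 array of 1 pool, so a difference between a pair of arrays has no replicate check; precision is limited by how few arrays there are.

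PI3K makes the membrane lipid PIP3, which recruits the kinase Akt, and SGK kinases also act downstream of PI3K. These kinases phosphorylate FoxO transcription factors and hold them in the cytoplasm, and Akt also inhibits the TSC complex, which keeps the growth kinase complex mTORC1 in check. Ddit4 and the sestrins lower mTORC1 activity when cells are stressed, and Pik3ip1 lowers PI3K activity at the membrane, so each acts as a brake at a different step. In lymphocytes FoxO factors are known for controlling survival, quiescence and homing genes, and immature thymocytes are known to die after exposure to glucocorticoids.

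The values are log2 levels after RMA, and a difference of 1 between 2 arrays is a 2-fold change. For each gene the probe set with the highest mean level stands for it, and of 19770 named genes the 9885 with a mean of at least 5.28, the median over genes, were kept for comparison. All 9 measured genes were kept. Array medians over all probe sets lay between 4.23 and 4.37. Levels are compared between arrays within a probe set, and never between probe sets. All 13 measured thymocyte markers of 14 listed lay above the array median on all 5 arrays. Summed over each list, linear intensities of thymic epithelium, macrophage, fibroblast and adipocyte markers were higher in the 3 suspensions taken directly from animals than in both cultures. Of 7 granulocyte markers, 0 lay below the array median on any array. In the ethanol culture the level was below that of the untreated pool for 10 of 10 measured thymic epithelium markers, 11 of 11 macrophage markers, 9 of 9 fibroblast markers and 5 of 6 adipocyte markers. In bulk RNA of this kind fewer cells of a type and less RNA per cell cannot be told apart.

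**Figure D1:**
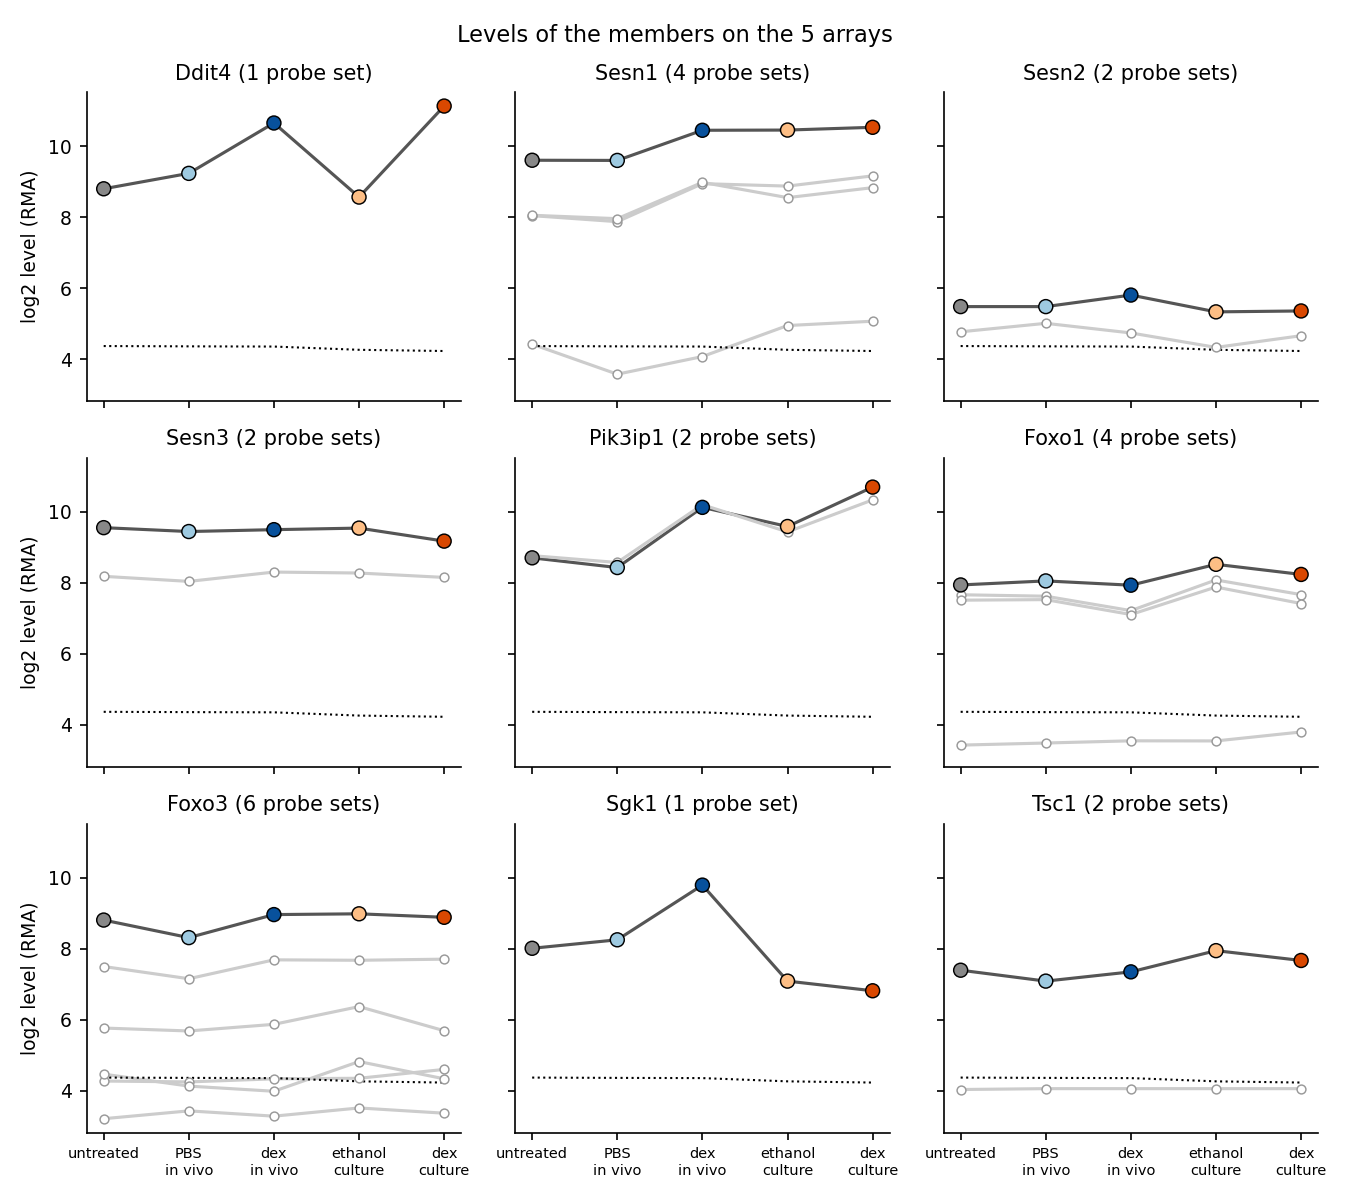
RMA log2 levels (vertical axis) of the 9 measured genes on the 5 arrays (horizontal axis). Large coloured points joined by a dark line are the probe set with the highest mean level, small open points are the gene's other probe sets, and the dotted line is the array median over all 45101 probe sets; Ddit4 and Pik3ip1 are highest on the 2 dexamethasone arrays, and Sgk1 is highest after injection of dexamethasone (9.79).

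In living animals 3 of the 9 genes (Ddit4, Pik3ip1 and Sgk1) were at least 2-fold higher 4 h after dexamethasone than after PBS, against 2.71% of all kept genes. At least 2-fold lower were 0 of the 9, against 1.48% of kept genes. In culture 2 of the 9 (Ddit4 and Pik3ip1) were at least 2-fold higher with dexamethasone than with ethanol, against a background of 1.53%, and 0 were at least 2-fold lower, against 0.86%. Ddit4 and Pik3ip1 were thus the 2 of 9 that passed 2-fold in both settings, which 0.941% of kept genes did. The median difference of the 9 genes was 0.65 in vivo and -0.10 in culture, and over all kept genes it was -0.07 and 0.04. Counted over single probe sets, 6 of 24 were at least 2-fold higher in vivo, where 2.06% of all probe sets were, and 2 of 24 in culture, where 0.727% were.

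**Figure D2:**
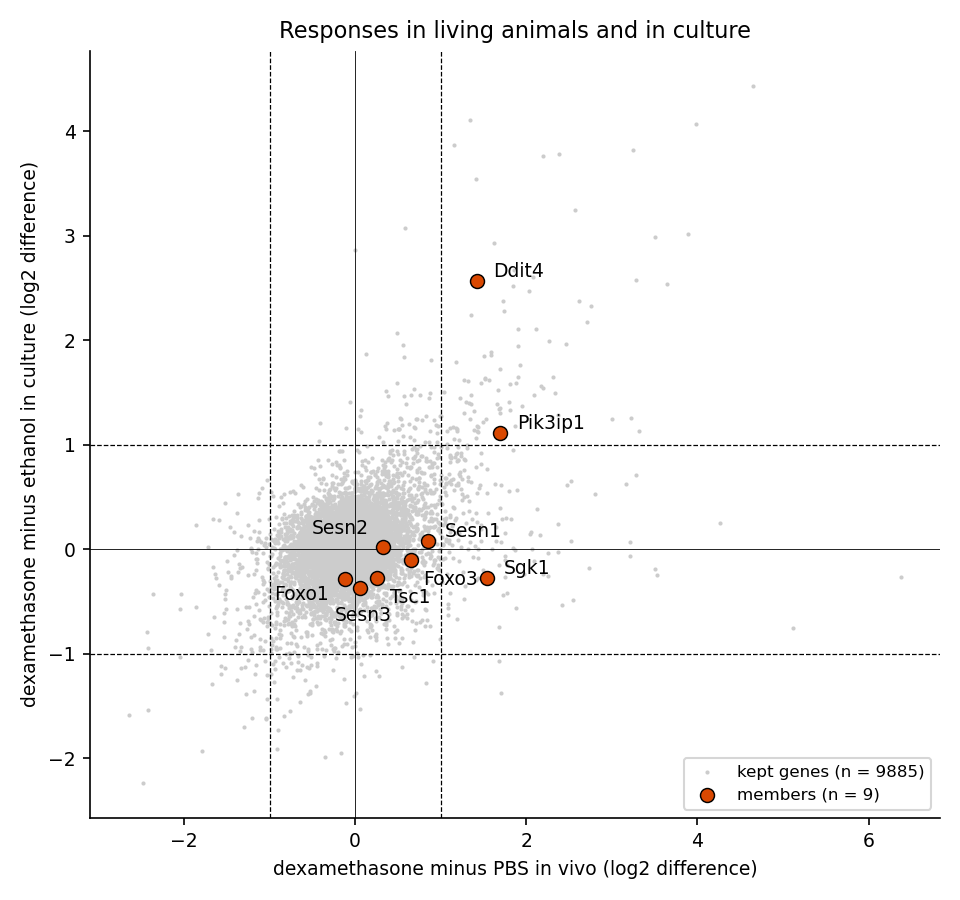
Log2 difference between dexamethasone and PBS in vivo (horizontal axis) against that between dexamethasone and ethanol in culture (vertical axis), for the 9 measured genes (orange) and all 9885 kept genes (grey); dashed lines mark a 2-fold difference. Ddit4 (1.42 and 2.56) and Pik3ip1 (1.69 and 1.11) lie past 2-fold on both axes, Sgk1 (1.54 and -0.27) on the horizontal axis, and the other 6 genes within 2-fold on both.

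A single contrast had any replication, the mean of the in vivo and culture differences, which share no array. It was fitted with limma to all kept genes over 4 arrays with the setting as a block. The 1 residual degree of freedom per gene is the disagreement between the settings, and the p-values therefore say nothing of how pools of 1 group vary. The fit also draws each gene's variance toward that of kept genes at similar levels, with 9.01 prior degrees of freedom. A printed SE is therefore not the spread of a gene's own 2 differences. At an adjusted p below 0.05 (Benjamini-Hochberg over all 9885 kept genes), Ddit4 and Pik3ip1 rose and 0 of the 9 fell, where 2.34% of kept genes rose and 1.48% fell. Both calls are lost without the level filter (adjusted p = 0.745 for Ddit4 and 0.728 for Pik3ip1), without the setting block (0.728 and 1) and when each probe set is fitted on its own (0.132 for Ddit4, and 0.110 and 0.158 for Pik3ip1).

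Ddit4, also called REDD1, is a stress-induced protein that restrains mTORC1 through the TSC complex, and is a known glucocorticoid-induced gene in several tissues. Its only probe set (1428306_at) had a log2 level of 8.80 in the untreated pool, 9.23 after PBS, 10.65 after injected dexamethasone, 8.56 in the ethanol culture and 11.13 in the dexamethasone culture. Both dexamethasone arrays stood above all 3 others, and the cultured one was the highest. The difference from vehicle was 1.42 in vivo, or 2.67-fold, and 2.56 in culture, or 5.91-fold. Ddit4 rose by 1.99 ± 0.22 (SE) as the mean of both settings (limma adjusted p = 0.000922, 2 differences, both above 0). Without a replicate the gap of -1.14 between the in vivo and culture differences could not be tested. The PBS pool lay 0.43 above the untreated pool and the ethanol culture 0.23 below it (-0.23). Measured from the untreated pool in place of the vehicle, the differences were 1.85 in vivo and 2.33 in culture.

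Pik3ip1 is a membrane protein that binds the catalytic subunit of PI3K and inhibits it, and has been described as a brake on T cell activation. Its probe set 1428332_at read 8.70 untreated, 8.43 after PBS, 10.13 after injected dexamethasone, 9.59 in the ethanol culture and 10.70 in the dexamethasone culture. The dexamethasone arrays were again the 2 highest, but the ethanol culture lay well above the untreated and PBS pools. The difference from vehicle was 1.69 in vivo (3.24-fold) and 1.11 in culture (2.16-fold). The gene rose by 1.40 ± 0.16 (SE) over both settings (limma adjusted p = 0.00113, 2 differences, both above 0). The second probe set, 1439087_a_at, read 8.77, 8.57, 10.20, 9.44 and 10.34 on the same arrays in the same order, with differences of 1.63 in vivo and 0.90 in culture. Both probe sets thus gave the same order of arrays, and the second fell short of 2-fold in culture. Time in culture with ethanol went with a level 0.88 above the untreated pool by the first probe set and 0.67 by the second.

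RefSeq promoter windows of these genes, from 250 bases before to 50 bases after each annotated start in assembly GRCm38.p6, were read for 3 motifs on both strands. These were the glucocorticoid receptor half-site AGAACA or its reverse complement, the receptor core ACANNNTGT, which is the centre of a pair of facing half-sites and can overlap them, and the FoxO site TGTTTAC or its reverse complement. Of all 32851 windows, 19.0% hold the half-site, 6.85% the core and 3.65% the FoxO site. The table has 16 windows for the 10 genes, 6 of them for Sgk1. The windows of Ddit4 (chr10:59951721-59952020, minus strand) and Pik3ip1 (chr11:3330481-3330780, plus strand) are shown because these are the genes that rose, and neither holds any of the 3 motifs. This says only that the letters are absent from these windows, and nothing follows from it about the receptor.
Ddit4 promoter: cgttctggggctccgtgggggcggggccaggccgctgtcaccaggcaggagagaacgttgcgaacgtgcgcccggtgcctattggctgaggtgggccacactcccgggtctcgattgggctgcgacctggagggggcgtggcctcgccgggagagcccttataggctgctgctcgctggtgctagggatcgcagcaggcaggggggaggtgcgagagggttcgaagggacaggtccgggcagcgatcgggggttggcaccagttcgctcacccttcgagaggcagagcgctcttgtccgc
Pik3ip1 promoter: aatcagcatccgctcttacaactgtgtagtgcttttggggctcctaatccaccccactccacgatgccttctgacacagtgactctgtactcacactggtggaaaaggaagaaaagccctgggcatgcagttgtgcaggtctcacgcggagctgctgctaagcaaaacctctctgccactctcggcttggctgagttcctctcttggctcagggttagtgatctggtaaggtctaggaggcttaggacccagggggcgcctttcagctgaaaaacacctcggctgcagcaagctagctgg

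Sgk1 is a kinase activated downstream of PI3K that phosphorylates FoxO3 and ubiquitin ligases of the Nedd4 family, and takes its name from its induction by serum and glucocorticoids. Its probe set (1416041_at) read 8.01 untreated, 8.25 after PBS, 9.79 after injected dexamethasone, 7.09 in the ethanol culture and 6.81 in the dexamethasone culture. One array was high, that of the animals given dexamethasone, and both cultures lay below all 3 suspensions taken directly from animals. The difference from vehicle was 1.54 in vivo, or 2.91-fold, and -0.27 in culture. The mean of both, 0.63 ± 0.33 (SE), did not pass the test (limma adjusted p = 0.516, 1 of 2 differences above 0), but passed at 0.0192 after a second quantile normalization. The ethanol culture lay 0.92 below the untreated pool (-0.92) and the dexamethasone culture 1.20 below it (-1.20).

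Markers of other cells also differed between these arrays. Adipocyte markers were higher after injected dexamethasone than after PBS for 5 of 6 measured genes and lower for 0, by up to 1.05, and their summed linear intensity was 4403 after PBS, 7804 after dexamethasone, 5237 in the untreated pool, 69.7 in the ethanol culture and 72.4 in the dexamethasone culture. Macrophage markers were higher in vivo for 10 of 11 genes, by up to 1.68 (the mannose receptor gene Mrc1), with summed intensities of 8716 untreated, 9073 after PBS, 10432 after dexamethasone, 795 in the ethanol culture and 609 in the dexamethasone culture. Thymic epithelium markers summed to 11772 untreated, 12849 after PBS, 14238 after dexamethasone, 286 in the ethanol culture and 310 in the dexamethasone culture, and in vivo 6 of 10 were higher with dexamethasone and 4 lower, down to -1.46. In the ethanol culture 5 of 6 adipocyte, 6 of 11 macrophage and 5 of 10 epithelium markers lay below the array median, and 0 of the 13 thymocyte markers did. Their part in the Sgk1 values was not tested. Thymocyte markers summed to 37362 after PBS and 24054 after dexamethasone in vivo, and 6 of the 13 fell over both settings by limma, where 1.48% of kept genes did, among them Cd8a, the CD8 alpha chain, with a mean difference of -0.99 (adjusted p = 0.000932).

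Of all genes with a promoter window, 21.3% hold the receptor half-site in a window. Among the 10 genes it was found for Sgk1 alone, not above that share, in 3 of its 6 windows. One of these windows (chr10:21993640-21993939, plus strand) holds 3 half-sites, and a pair of them face each other across 3 bases as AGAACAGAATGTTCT. This full palindrome, looked for after the half-sites had been found, occurs in 3 of the 32851 windows, or 0.00913%. Its first base lies 189 bases before the start site of that window and 965 bases before the most downstream start listed for Sgk1. The data here do not say which start gave the transcripts that the probe set read. The window is printed with the half-sites and their palindrome in capitals, because Sgk1 is the gene whose responses in animals and culture lay farthest apart among the 9. A match is a description of letters and not a measured binding site.
Sgk1 promoter: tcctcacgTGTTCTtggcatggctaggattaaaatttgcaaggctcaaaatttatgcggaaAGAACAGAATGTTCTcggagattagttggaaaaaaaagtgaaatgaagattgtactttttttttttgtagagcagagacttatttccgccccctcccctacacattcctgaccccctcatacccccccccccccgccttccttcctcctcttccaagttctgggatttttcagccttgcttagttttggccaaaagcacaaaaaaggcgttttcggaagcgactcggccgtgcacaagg

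The sestrins are stress-induced proteins that hold back mTORC1 through the GATOR complexes, and Sesn1 is known as a target of p53 and of FoxO factors. The Sesn1 probe set 1433711_s_at read 9.60 untreated, 9.60 after PBS, 10.45 after injected dexamethasone, 10.45 in the ethanol culture and 10.53 in the dexamethasone culture. The levels fell into a lower pair, untreated and PBS, and 3 higher arrays that lay within 0.1 of each other. Dexamethasone thus stood 0.85 above its vehicle in vivo (1.80-fold) and 0.08 in culture, while the ethanol culture itself stood 0.85 above the untreated pool. The mean of both settings, 0.46 ± 0.17 (SE), did not pass the test (limma adjusted p = 0.265, 2 differences, both above 0). Quantile normalization of the 5 arrays a second time brought it past the threshold, at an adjusted p of 0.0211.

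The other well-measured Sesn1 probe sets had somewhat larger in vivo differences. Probe set 1454699_at read 8.04, 7.87, 8.94, 8.87 and 9.16 in the order above, with differences of 1.07 in vivo and 0.29 in culture. Probe set 1438931_s_at read 8.05, 7.96, 8.98, 8.55 and 8.83, with differences of 1.02 and 0.28. Both passed 2-fold in vivo where the first probe set did not, so the count of genes past 2-fold depends for Sesn1 on the probe set chosen. The fourth, 1444376_at, stayed between 3.58 and 5.07, near the array median. The authors' deposited table of the in vivo comparison holds 1260 probe sets, 2.79% of the array, and lists 6 that belong to these genes. They are 2 of Sesn1, 2 of Pik3ip1 and the single ones of Ddit4 and Sgk1. The values used here also have 1260 probe sets at least 2-fold apart in vivo in either direction. The 6 are thus the probe sets already counted as past 2-fold in vivo, on the same values, and not separate evidence.

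Over all genes with a promoter window, 4.05% hold the FoxO site in a window. The single FoxO site among the 16 windows lies in the upstream Sesn1 window (chr10:41810324-41810623, plus strand), 22 bases after its start. The window is printed with that site in capitals because Sesn1 was, beside Ddit4, Pik3ip1 and Sgk1, the gene with the largest in vivo difference. Its second window holds none of the 3 motifs.
Sesn1 promoter: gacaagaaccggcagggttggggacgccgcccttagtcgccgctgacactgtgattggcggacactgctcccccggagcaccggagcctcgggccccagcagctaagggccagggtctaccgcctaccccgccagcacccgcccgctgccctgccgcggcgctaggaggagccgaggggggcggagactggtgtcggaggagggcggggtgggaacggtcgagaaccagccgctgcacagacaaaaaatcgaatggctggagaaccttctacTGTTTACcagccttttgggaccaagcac

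Sesn2, the family member known as a leucine sensor, was measured close to the level filter. Its probe set 1451599_at read 5.48 untreated, 5.48 after PBS, 5.80 after injected dexamethasone, 5.33 in the ethanol culture and 5.36 in the dexamethasone culture. All 5 arrays lay within 0.5 of each other, and the differences from vehicle were 0.32 in vivo and 0.03 in culture. The other probe set, 1425139_at, ran from 4.33 to 5.01 and had the opposite sign in vivo, at -0.27, with 0.33 in culture. The direction of Sesn2 therefore differed between its probe sets, and its mean of 0.18 did not pass the test (limma adjusted p = 0.895).

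Sesn3, which FoxO factors are known to induce in several cell types, showed little difference between arrays despite a level far above the array median. Probe set 1453313_at read 9.55 untreated, 9.45 after PBS, 9.50 after injected dexamethasone, 9.54 in the ethanol culture and 9.18 in the dexamethasone culture. Its lowest array was the dexamethasone culture, and the differences from vehicle were 0.05 in vivo and -0.37 in culture. Probe set 1449303_at ran from 8.04 to 8.30, with differences of 0.26 and -0.12. The mean of both settings, -0.16 ± 0.16 (SE), did not pass the test (limma adjusted p = 0.843).

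**Figure D3:**
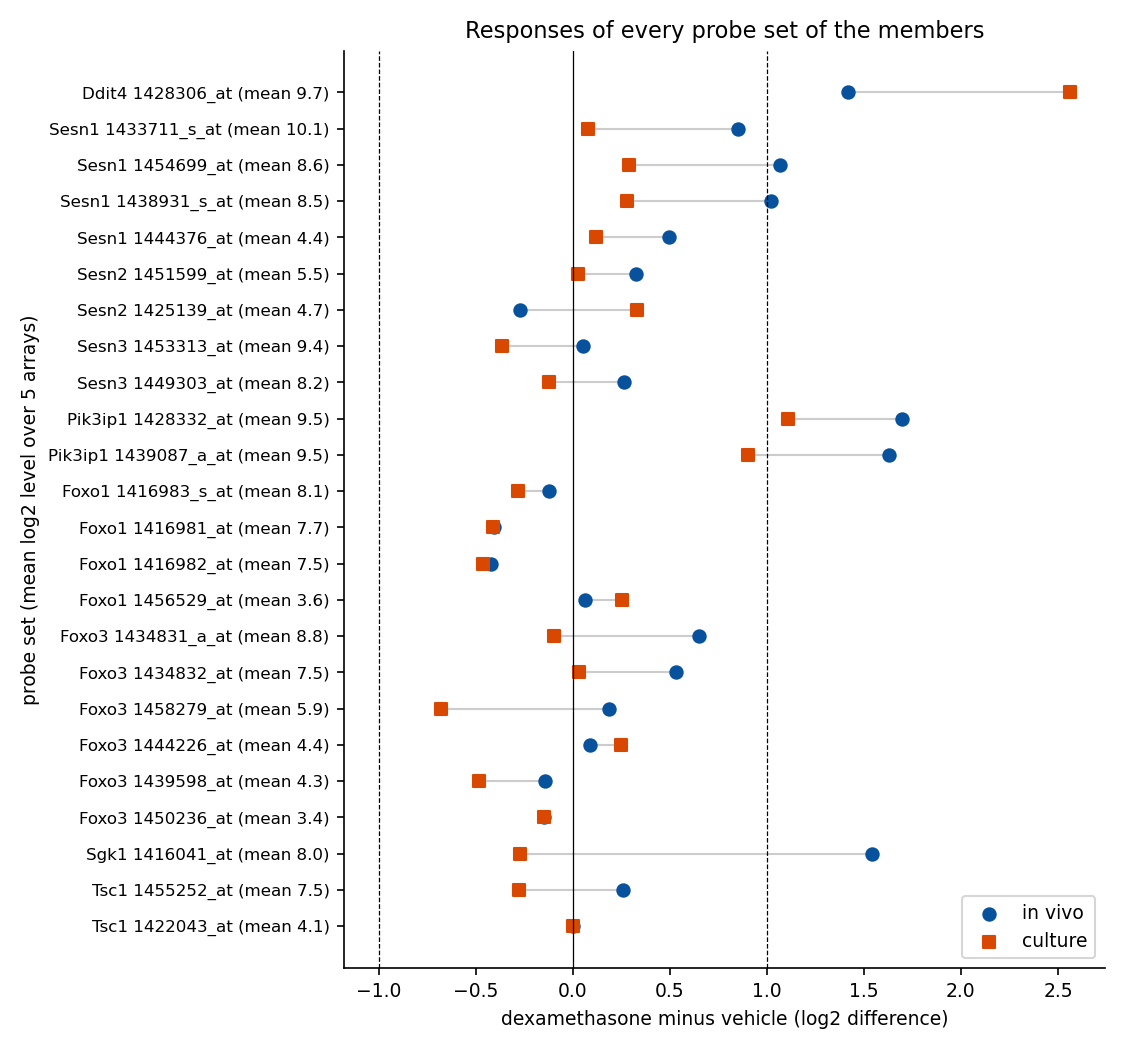
Log2 difference between dexamethasone and vehicle (horizontal axis) for each of the 24 probe sets (vertical axis, with its mean level over 5 arrays), in vivo as blue circles and in culture as orange squares; dashed lines mark a 2-fold difference. The Sesn1 probe sets lie between 0.50 and 1.07 in vivo and between 0.08 and 0.29 in culture, and the 6 of Foxo3 spread to both sides of 0.

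Foxo1, the FoxO factor known in T cells for driving Il7r and Klf2, had 4 probe sets. The one with the highest mean, 1416983_s_at, read 7.94 untreated, 8.06 after PBS, 7.93 after injected dexamethasone, 8.52 in the ethanol culture and 8.24 in the dexamethasone culture. Both cultures lay above the suspensions taken directly from animals, and each dexamethasone array lay below its vehicle, by -0.12 in vivo and -0.28 in culture. Probe sets 1416981_at (-0.41 and -0.41) and 1416982_at (-0.42 and -0.46) had larger differences of the same sign, and the remaining one was read below the array median throughout. The mean of both settings, -0.20 ± 0.17 (SE), did not pass the test (limma adjusted p = 0.790, 0 of 2 differences above 0).

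Foxo3, which shares many targets with Foxo1, had 6 probe sets, of which 3 stayed between 3.21 and 4.82 and carry little information. Probe set 1434831_a_at read 8.80 untreated, 8.31 after PBS, 8.96 after injected dexamethasone, 8.98 in the ethanol culture and 8.88 in the dexamethasone culture. The PBS pool was the low one, and the other 4 arrays lay within 0.18 of each other. The in vivo difference of 0.65 therefore shrank to 0.15 when the untreated pool replaced the PBS pool, and the culture difference was -0.10. Probe set 1434832_at gave 0.53 and 0.03, and 1458279_at gave 0.19 and -0.68. The mean of both settings, 0.28 ± 0.20 (SE), did not pass the test (limma adjusted p = 0.711).

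Tsc1, which stabilises Tsc2 in the complex that switches off the mTORC1 activator Rheb, was read by 1455252_at at 7.39 untreated, 7.09 after PBS, 7.35 after injected dexamethasone, 7.94 in the ethanol culture and 7.67 in the dexamethasone culture. The cultures were the 2 highest arrays. The differences from vehicle had opposite signs, 0.26 in vivo and -0.28 in culture, and their mean of -0.01 did not pass the test (limma adjusted p = 0.996). Its second probe set lay below the array median on all 5 arrays.

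The arrays without dexamethasone also differed from each other for some of these genes. Between the PBS and untreated pools 0 of 9 were higher by 2-fold or more and 0 were lower by as much, where 0.192% and 0.374% of kept genes were, and the widest differences were -0.49 for Foxo3 and 0.43 for Ddit4. Between the ethanol culture and the untreated pool the counts were again 0 and 0 of 9, against 3.1% and 8.07% of kept genes. The widest differences there were -0.92 for Sgk1, 0.88 for Pik3ip1 and 0.85 for Sesn1. For Pik3ip1 and Sesn1 the ethanol culture thus lay between the untreated pool and the dexamethasone culture. These comparisons share the untreated array, and the ethanol array also serves as the vehicle in culture, so their values are not independent of the dexamethasone differences.

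Levels over the 5 arrays were also set against those of all kept genes, after removing each gene's own mean. The measure is the root mean square of the difference between a pair of genes on the log2 scale, and small values mean similar profiles. Among the kept genes closest to Ddit4 were Plaur (0.237), the urokinase receptor gene, Fkbp5 (0.245), an Hsp90 co-chaperone and known glucocorticoid target, Zfp553 (0.278) and Osbpl1a (0.309), a lipid-binding protein gene. These 4 were also among the closest without the untreated array. Fkbp5 read 9.94, 9.88, 11.78, 9.59 and 11.69 in the order untreated, PBS, injected dexamethasone, ethanol culture and dexamethasone culture, with differences from vehicle of 1.90 in vivo and 2.10 in culture. Like Ddit4, Fkbp5 was highest on both dexamethasone arrays, which follows from its choice by a profile close to that of Ddit4. Within the 9 genes, Ddit4 was closest to Pik3ip1 (0.635), a choice among far fewer genes than the one that gave those 4. Foxo1 and Tsc1 lay closest together (0.160), but without the untreated array Sesn1 and Foxo3 did (0.128, against 0.169), and Sgk1 had the most distant nearest neighbour, Sesn2 at 0.886.

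The surrounding pathway was covered by 11 gene lists, chosen with earlier results of these data known, which held 138 genes, 114 of them kept. In vivo 6 of the 114 were higher by 2-fold or more and 1 lower, where 2.71% and 1.48% of all kept genes were. In culture 2 were higher and 2 lower, against 1.53% and 0.86%. By limma 5 rose and 3 fell, against 2.34% and 1.48%. The median difference of the 114 was 0.02 in vivo and 0.01 in culture.

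Among genes that act upstream of PIP3, the list of PI3K subunits also holds the adaptor Pik3ap1. Of the 9 kept genes on that list 1 fell and 0 rose, where 1.48% of all kept genes fell and 2.34% rose. This was Pik3r3, a regulatory subunit, which read 6.64 untreated, 6.09 after PBS, 5.05 after injected dexamethasone, 5.48 in the ethanol culture and 3.86 in the dexamethasone culture. It lay lowest in the dexamethasone array of each setting, with differences of -1.04 and -1.62 and a mean of -1.33 ± 0.27 (SE, limma adjusted p = 0.0222). The level in the dexamethasone culture was below that array's median of 4.23, so the size of the culture difference is uncertain. Of 6 kept receptors and adaptors, 1 rose against 2.34% of kept genes, Il7r, the interleukin-7 receptor alpha chain, which counts among the FoxO targets as well. It differed by 0.41 in vivo and 0.94 in culture (limma adjusted p = 0.0483), and the ethanol culture stood 1.07 above the untreated pool. Of 6 PIP3 phosphatases 0 rose and 0 fell, with differences from 0.00 to 0.42 in vivo and from -0.84 to 0.33 in culture.

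Of the 4 kept kinases of the Akt, Pdpk1 and SGK list, 0 passed the test. Sgk3, a relative of Sgk1, was 2.22-fold higher in vivo and 1.32-fold in culture, and its 3 probe sets ran from 0.87 to 1.35 in vivo, but its mean of 0.78 ± 0.20 (SE) missed the threshold (limma adjusted p = 0.0721). It read 8.27 untreated, 8.17 after PBS, 9.32 after injected dexamethasone, 7.97 in the ethanol culture and 8.37 in the dexamethasone culture. As for Sgk1, the highest array was that of the animals given dexamethasone. The lowest was the ethanol culture, whereas for Sgk1 it was the dexamethasone culture.

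Around mTORC1, 0 of 10 kept genes of the TSC complex, Rheb and the mTOR complexes and 0 of 9 of the AMPK complex passed the test in either direction. Of 9 mTORC1 substrates and outputs, 1 rose against 2.34% of kept genes, Pdcd4, a translation inhibitor that the mTORC1 branch is known to mark for degradation. Pdcd4 read 10.12 untreated, 9.98 after PBS, 11.77 after injected dexamethasone, 10.85 in the ethanol culture and 11.41 in the dexamethasone culture. Its differences were 1.80 in vivo and 0.56 in culture, and the limma mean was 1.18 ± 0.22 (SE, adjusted p = 0.0170). The 4 Pdcd4 probe sets ran from 0.87 to 1.80 in vivo and from 0.34 to 0.56 in culture. Of 21 genes of the Rag GTPases, GATOR and leucine sensing, 1 fell against 1.48% of kept genes, Rragd, one of the Rag GTPases that bring mTORC1 to the lysosome, by -0.83 in vivo and -1.59 in culture (limma adjusted p = 0.0203). Its 3 probe sets ran from -1.59 to 0.14 in culture, so 1 or more of them did not share the direction of the fall.

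Of 23 kept FoxO target genes 4 rose and 1 fell, where 2.34% and 1.48% of kept genes did, and 3 were at least 2-fold higher in vivo and 2 in culture. The median difference of the list was 0.24 in vivo and -0.01 in culture. Those that rose were Txnip, an arrestin that limits glucose uptake, Bcl2l11, which encodes the pro-apoptotic protein Bim, Cited2, a transcriptional coregulator, and Il7r. Txnip differed by 1.51 in vivo and 1.63 in culture (limma adjusted p = 3.92e-05), Bcl2l11 by 1.35 and 1.24 (adjusted p = 0.000317) and Cited2 by 1.24 and 0.58 (adjusted p = 0.0271). Txnip and Bcl2l11 thus differed by similar amounts in both settings, while the gene that fell, Tcf7, a transcription factor of the T lineage, had a mean of -0.58 (adjusted p = 0.0241). Of 10 FoxO relatives and regulators 0 passed the test.

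Among 10 kept relatives and regulators of Ddit4 and Sgk1, 1 rose against 2.34% of kept genes, Txnip, which stands on this list also. Cul4a, a scaffold of the ubiquitin ligase known to mark Ddit4 for degradation, was 5.35-fold higher in vivo by the probe set 1426061_x_at and differed by -0.53 in culture. Its 3 probe sets ran from 0.22 to 2.42 in vivo, so they disagree on the size, and the mean did not pass the test (limma adjusted p = 0.511).

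**Figure D4:**
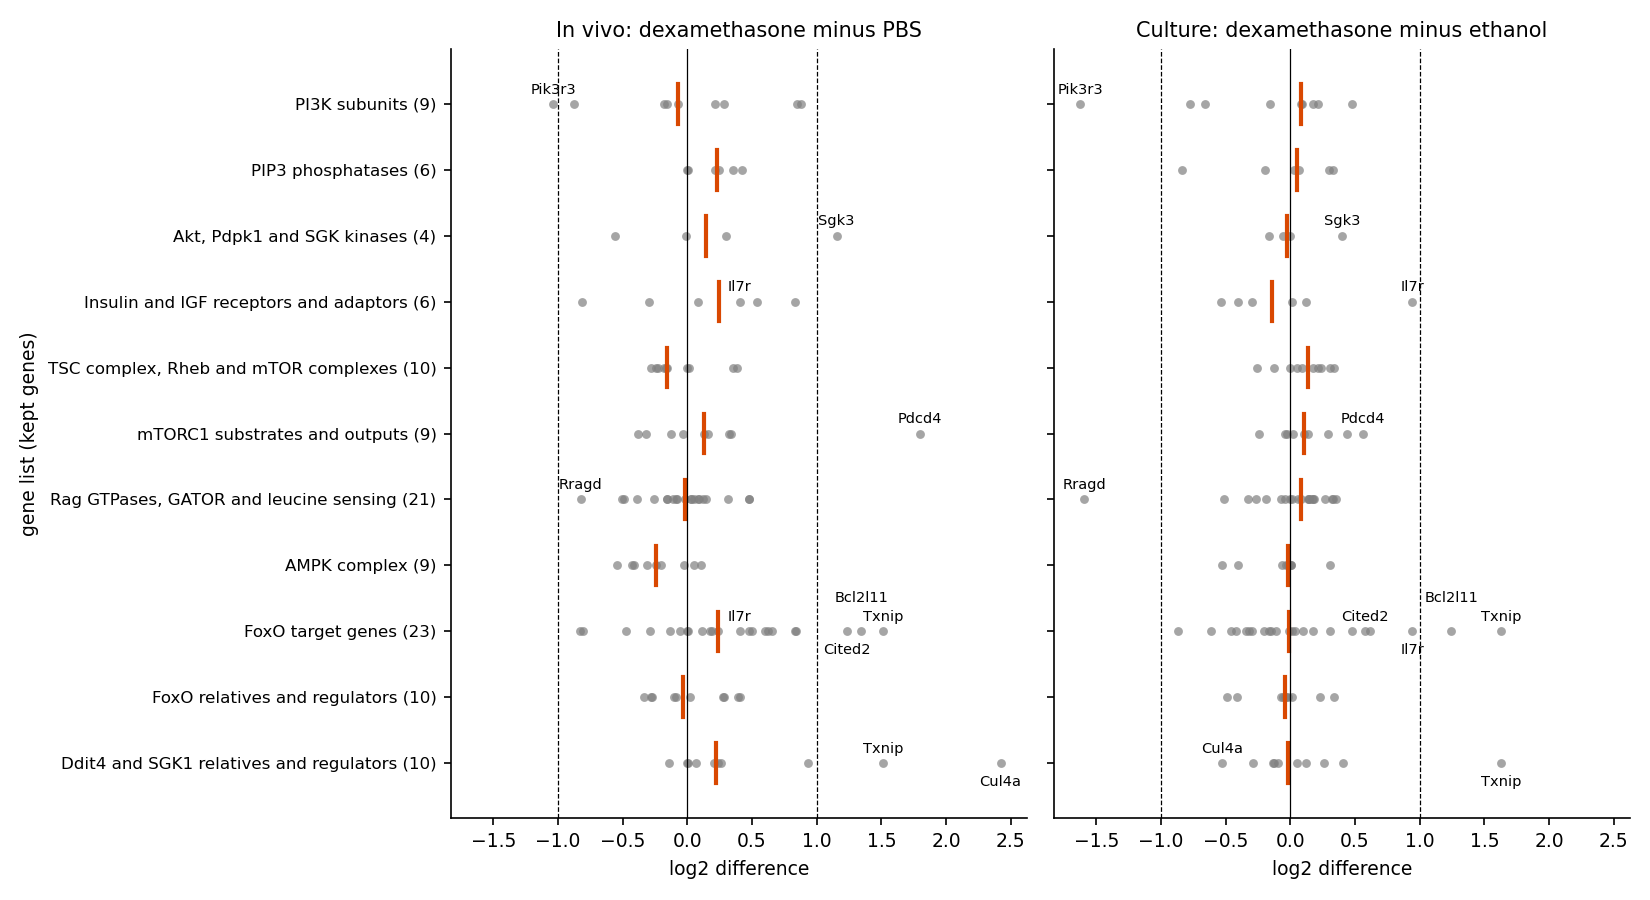
Log2 difference from vehicle (horizontal axis) in vivo (left) and in culture (right) for the kept genes of 11 pathway lists (vertical axis, number of kept genes in brackets). Grey points are genes, orange bars are list medians and dashed lines mark a 2-fold difference; labelled are genes that passed 2-fold or the limma test, among them Txnip (1.51 and 1.63), Pdcd4 (1.80 and 0.56) and Pik3r3 (-1.04 and -1.62).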

How the data were processed

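The 5 arrays carry 1 sample each. The deposited series matrix holds a linear intensity per probe set, which the authors made with RMA, per the submitters' processing notes; of its version and settings nothing is given in the sources used here. A deposited table of expression values holds the same measurements as log2 values and was used throughout (largest difference from the log2 of the matrix 7.11e-15). The authors' deposited table of log2 differences equalled differences of these values to within 1.78e-15. RMA puts all arrays on 1 distribution, and the files used here give no detection calls or scan dates.

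Symbols were updated through a RefSeq gene table (GRCm38.p6): 22694 probe sets had a current symbol, 11256 a synonym and 1563 an accession, 4143 kept the symbol of the file, 5381 were unnamed and 64 were controls. A gene's probe set with the highest mean stood for it. Differences of at least 1 (log2) were counted. The test was limma 3.58.1 in R 4.3.3 (lmFit, then eBayes with a trend), adjusted by Benjamini-Hochberg, and was tested on simulated data first. The genes described and all gene lists were chosen with earlier results of these data known. Named from the pathway lists were genes past 2-fold in either dexamethasone comparison or called by limma, at most 4 per list by mean difference. Beyond that rule Tcf7, Mrc1 and Cd8a were named after their values were seen. Alternatives changed the level filter, the probe set, the normalization, an offset of 32 on the intensity, the fold threshold, the control array, the block and the trend. One gene that the profile comparison would name is not reported here. Promoters are RefSeq sequences. Python 3.11.15 was used.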

Additional observations from a re-analysis of the deposited data

Results flagged for a closer look

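Of the 9 measured genes, 4 differed from vehicle in opposite directions in animals and in culture, with 1 array on each side, as did 41.7% of all kept genes. For Sgk1 the in vivo difference exceeded the culture difference by 1.81 on the log2 scale (1.54 against -0.27). For Foxo3 the gap was 0.75 (0.65 against -0.10), for Tsc1 0.54 (0.26 against -0.28) and for Sesn3 0.42 (0.05 against -0.37). The difference between the settings was not tested for any of them, since each group has 1 array. The other Foxo3 probe set with a level above 7, 1434832_at, was above 0 in both settings (0.53 and 0.03), and the second Sesn3 probe set had the same signs as the first (0.26 and -0.12). With the untreated pool in place of the vehicle, the signs were the same in both settings for Foxo3 (0.15 and 0.08) and Sesn3 (-0.06 and -0.38), stayed opposite for Sgk1 (1.78 and -1.20), and each turned for Tsc1 (-0.05 and 0.27).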

How the results depend on the processing

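Each group has 1 array and the labels carry no replicate numbers, so the pairing of each dexamethasone array with its vehicle in the setting block was the available one. Over the counts of genes and the fit, 61 values held under the other settings tried and 8 moved. A count was taken to hold if it equalled the reported one, 0 included, or was within 1.5-fold of it. Small changes in a count are therefore among the 61. Among differences of single genes 11 changed sign under another setting, all of them under 1 in size; 6 of these came with the untreated pool as control, such as Foxo1 in culture (-0.28 to 0.30) and Tsc1 in culture (-0.28 to 0.27). At a 1.5-fold threshold the in vivo count of higher genes was 5, with Sesn1 and Foxo3 added. The highest 5% of all kept genes began at 0.70 in vivo. At that threshold the ethanol culture against the untreated pool gave 2 higher (Sesn1 and Pik3ip1) and 1 lower (Sgk1, -0.92). There the highest 5% of kept genes began at 0.84 and the lowest 5% at -1.57, so such differences were common. With the untreated pool as control in culture, Sgk1 was more than 2-fold lower (-1.20), and the share of all kept genes for that control is not given here. By limma the number of the 9 genes that rose was 2 as reported. It was 0 without the level filter, 0 without the setting block and 0 with each probe set fitted on its own. After a second quantile normalization it was 4, which added Sesn1 (adjusted p = 0.0211) and Sgk1 (adjusted p = 0.0192). The share of all genes called in that refit is not given here, so the 4 have no background beside them. In the values as reported, the Sgk1 differences had opposite signs (1.54 in vivo and -0.27 in culture). Without the level filter 0 of 19770 genes were called, with 684 at an unadjusted p under 0.05, and without the block 0 of 9885, with 198; the fit as reported called 377, with 1262. Ddit4 and Pik3ip1 each passed in 5 of 7 alternatives fitted to genes, with an adjusted p from 4.33e-38 to 0.745 for Ddit4 and from 1.25e-17 to 1 for Pik3ip1, and means from 1.92 to 1.99 and from 1.33 to 1.40. The cause of the lost calls was not tested. Probe sets near the array median carry little signal over background, which limits Sesn2 most.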

Other observations

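Without dexamethasone, genes of the pathway lists also differed between the ethanol culture and the untreated pool. Of the 114 kept pathway genes, 7 were higher by 2-fold or more and 6 lower by as much in the ethanol culture, where 3.1% and 8.07% of all kept genes were. FoxO target genes ran from -2.61 to 2.03, with 4 higher and 2 lower by at least 2-fold. Genes of the list of PI3K subunits ran from -1.97 (the adaptor Pik3ap1) to 1.09, with 1 higher and 2 lower, Pik3ap1 among the lower. All 10 kept FoxO relatives and regulators lay below the untreated pool after PBS, by -0.67 to -0.02. Over all kept genes the median of that difference was -0.01. Also below were 9 of 9 kept genes of the list of PI3K subunits, 5 of 6 PIP3 phosphatases and 16 of 23 FoxO targets. Of 9 AMPK complex genes 3 lay below and 6 above, and 7 of 7 granulocyte markers lay above the untreated pool, by 0.71 to 1.00. None of these differences has a replicate check.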
